A study of Mus musculus with 8 samples.

Results

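Expression of 10 genes that mark immature and precursor B cells was followed in splenic B cells of mice that carry human HGAL. They were taken by name, as Cd93, Cd24a, Vpreb3, Vpreb1, Igll1, Rag1, Rag2, Dntt, Myb and Sox4, from the 19937 genes that the array's annotation names alone on a probe set. Each of the 10 genes had 1 such probe set, and all 10 were measured. Total RNA came from spleen cells of adult CBAxC57BL/6J mice sorted for both CD22 and B220, on Affymetrix Mouse Gene 1.0 ST arrays. The Sca1-HGAL group held 4 arrays of mice with HGAL (GCET2, a germinal centre adaptor protein) driven by the Sca1 (Ly-6E.1) promoter, a genotype called knock-in in one label and transgenic in another. The Control group held 4 arrays of Wild-Type littermates on the same mixed background. The Sca1 promoter is known for activity in blood stem cells, progenitors and lymphocytes, so it is not limited to splenic B cells. The mouse probes give no check of human HGAL itself. Nothing in the labels ties the arrays to individual mice, and p-values then reflect only how far these samples spread, which may in part be technical.

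B cells begin in the bone marrow, where RAG1 and RAG2 cut the immunoglobulin genes and the enzyme TdT adds bases at the joints. A first heavy chain is tested with a surrogate light chain made of VPREB1 and the product of Igll1, called lambda 5. Cells that pass reach the spleen as transitional B cells, which still carry CD93 and much CD24, and lose CD93 as they mature into follicular or marginal zone B cells. Recombination and surrogate light chain genes are off in mature B cells, so in a sorted spleen sample they and the transitional markers report on different stages.

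B-cell genes were abundant in both groups, which does not show how pure the sort was. Cd79a, a signalling chain of the B-cell receptor, was at a log2 intensity of 13.29 ± 0.03 in Sca1-HGAL arrays and 13.40 ± 0.07 in Control arrays (SD, n = 4 each). The sorting marker gene Cd22 was at a log2 intensity of 12.70 ± 0.13 in Sca1-HGAL arrays and 12.66 ± 0.04 in Control arrays (SD, n = 4 each), and Ptprc was at 12.77 in both groups. Ptprc is the gene of CD45, which all leukocytes carry, and its probe set does not measure the B220 isoform. The median deposited intensity of an array lay between 145.2 and 151.4. Control replicates 2 and 4 stood apart on sex-linked genes. Their log2 intensities of Xist, which coats the inactive X chromosome, were 12.17 and 12.18, against 5.28 to 5.65 on all 4 Sca1-HGAL arrays and 5.32 and 5.56 on the other Control arrays. Eif2s3y, a gene of the Y chromosome, was at 4.22 and 3.96 on these arrays and at 10.21 to 10.61 on all others. By these genes Control replicates 2 and 4 read as female and the other arrays as male, so sex was unbalanced between the groups. The labels give no sex. Results are also given without Control replicates 2 and 4. Over all probe sets, Sca1-HGAL replicate 3 had a mean correlation of 0.9926 with the Control arrays and 0.9909 with its own group. Sca1-HGAL replicate 1 had the lowest mean correlation with its own group, 0.9889, and the lowest array weight, 0.486. Of the 21640 probe sets tested with limma, 1 passed at a Benjamini-Hochberg adjusted p under 0.05, and 40 passed without Sca1-HGAL replicate 3.

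The surrogate light chain family holds both patterns described below. Vpreb3 is a relative of Vpreb1 that is still transcribed at the transitional stage. The 250 bases before the annotated start of Vpreb3, Vpreb1 and Igll1 are shown 5′ to 3′ from the RefSeq promoter table (GRCm38.p6), with the last base next to the start. Capitals mark matches, on either strand, to the octamer ATGCAAAT, bound by OCT1 and OCT2, and to CCCNNGGG, the centre of the motif of the early B-cell factor EBF1.
Vpreb3, chr10:75948050-75948299, plus strand: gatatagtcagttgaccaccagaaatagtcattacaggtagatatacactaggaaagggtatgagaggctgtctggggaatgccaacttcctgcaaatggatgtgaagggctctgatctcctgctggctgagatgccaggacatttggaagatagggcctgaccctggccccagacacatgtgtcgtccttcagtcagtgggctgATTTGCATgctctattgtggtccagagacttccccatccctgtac
Vpreb1, chr16:16869256-16869505, minus strand: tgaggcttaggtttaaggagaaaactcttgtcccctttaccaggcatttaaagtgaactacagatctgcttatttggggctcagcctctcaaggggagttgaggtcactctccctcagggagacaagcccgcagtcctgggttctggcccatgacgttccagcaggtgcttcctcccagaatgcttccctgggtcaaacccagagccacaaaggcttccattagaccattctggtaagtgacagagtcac
Igll1, chr16:16863986-16864235, minus strand: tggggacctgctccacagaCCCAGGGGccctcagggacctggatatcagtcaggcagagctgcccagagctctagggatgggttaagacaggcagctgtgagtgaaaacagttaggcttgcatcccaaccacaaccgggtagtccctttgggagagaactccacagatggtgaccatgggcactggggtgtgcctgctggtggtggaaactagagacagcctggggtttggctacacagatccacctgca
The Vpreb3 sequence held 1 octamer, read on the opposite strand, whose first base lies at position -45 from the start. The octamer was found in 1.6% of the 32851 promoter sequences of the table, cut to the same length, and was added to the search after the Vpreb3 sequence had been read. Igll1 held 1 match to the EBF1 centre, at position -231, a motif present in 11.8% of promoters. Vpreb1 held neither. E-boxes (CANNTG, present in 66.2% of promoters) numbered 5 in Vpreb3, 1 in Vpreb1 and 3 in Igll1. The MYB motif AACNG, present in 74.2%, was found at 1 position in Vpreb3, where it overlaps an E-box, at 3 in Igll1 and at 0 in Vpreb1. The capitalised matches overlap none of the E-boxes or MYB motifs. These are letter matches within a short window and say nothing of binding. Sequences for 8 of the 10 genes are in the table, not those of Cd93 and Cd24a.

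No gene of the set passed limma over all probe sets, with 0 of 10 called where 0.00462% of probe sets were called. At an unadjusted p under 0.05, 4 of 10 had a lower mean in Sca1-HGAL arrays, Cd93, Vpreb3, Myb and Sox4, where 4.06% of all probe sets did, and 0 of 10 had a higher mean, where 5.53% did. A negative log2 fold was found for 6 of 10, and for 43.9% of probe sets. The groups did not overlap, with Sca1-HGAL lower, for 2 of 10, Cd93 and Vpreb3, where 2.3% of probe sets had that pattern. The median log2 fold of the 10 genes, Sca1-HGAL minus Control, was -0.05, beside 0.02 over all 19937 genes. Split by role, the 3 transitional markers had a median of -0.40, the value of Vpreb3, and the 5 pre-B and recombination genes 0.04. The Control mean was under log2 6 for 3 of these 5 genes and for 0 of the transitional markers. Low intensities shrink differences on an array, and the difference between the roles was not tested. In bulk RNA, fewer cells of a type and less RNA per cell cannot be told apart.

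**Figure D1:**
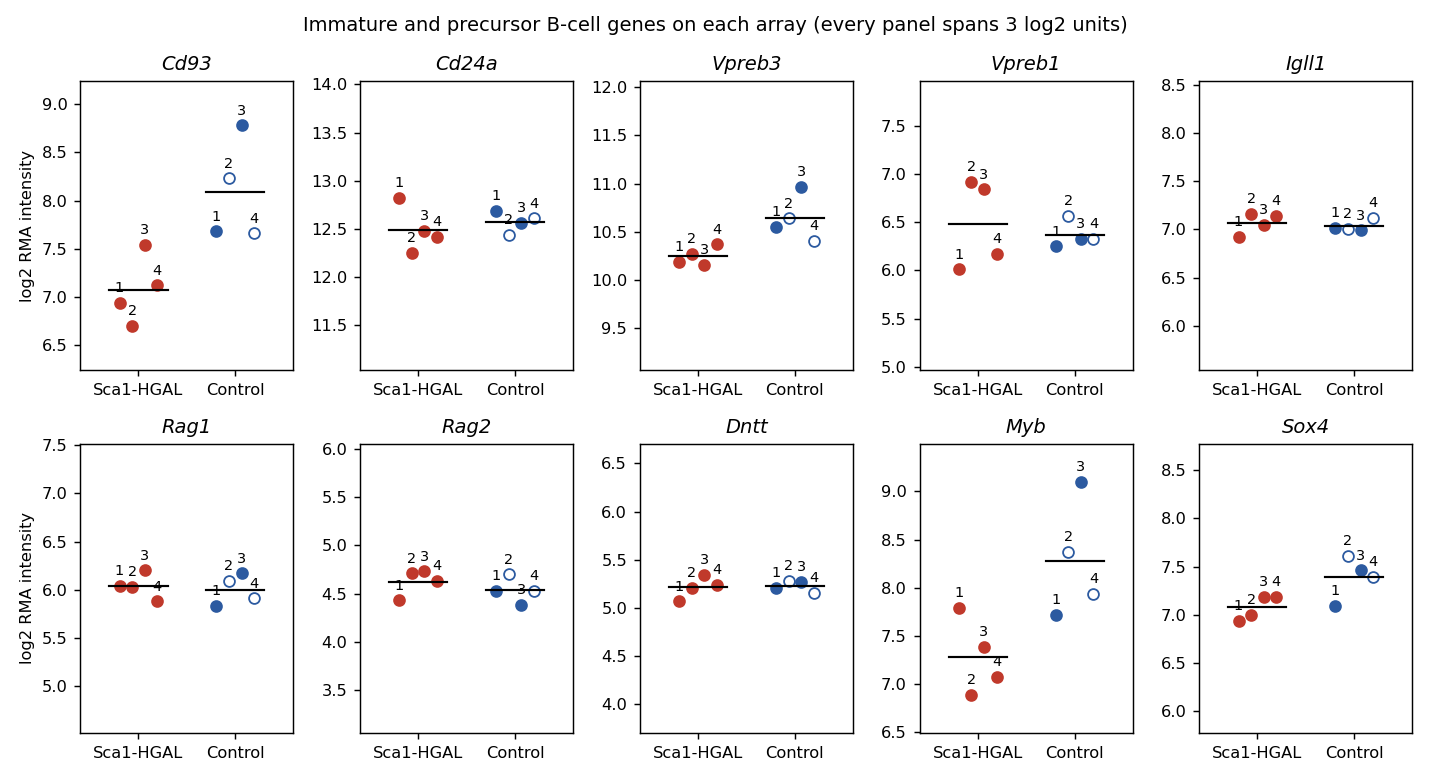
Log2 RMA intensity of each of the 10 genes on each array, Sca1-HGAL left of Control in each panel, with numbers giving the replicate, lines the group means and open circles the Control arrays with high Xist. For Cd93 all 4 Sca1-HGAL arrays lie at or below 7.54 and all 4 Control arrays at or above 7.66. Vpreb3 also has groups that do not overlap, and every other gene overlaps between the groups.

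Among the transitional markers, Cd93 had the largest difference. CD93 is a surface glycoprotein, known by the antibody AA4.1, whose loss separates mature from transitional B cells. It is also found on plasma cells, progenitors and some myeloid and endothelial cells. Its log2 intensity was 6.94, 6.70, 7.54 and 7.12 in Sca1-HGAL replicates 1 to 4, against 7.68, 8.23, 8.78 and 7.66 in Control replicates 1 to 4. Every Sca1-HGAL array was below every Control array, by a narrow gap between Sca1-HGAL replicate 3 and Control replicates 4 and 1. The log2 fold was -1.01 (SE 0.25, 95% interval -1.58 to -0.45), an intensity 0.496 times that of Control arrays, and the limma adjusted p = 0.242. By size this was the 16th lowest log2 fold of 19937 genes. Without Control replicate 3, the array with the highest Cd93, the log2 fold was -0.78. Without the Control arrays with high Xist it was -1.16, with an adjusted p = 0.505. Over all 17 alternatives the adjusted p ranged from 0.112 to 0.545, and the log2 fold from -1.17 to -0.78.

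Vpreb3 differed less in size but was tighter among arrays. VPREB3 binds newly made immunoglobulin heavy chains inside the cell and is expressed from precursor to transitional B cells. Its log2 intensity was 10.19, 10.27, 10.16 and 10.37 in Sca1-HGAL replicates 1 to 4, against 10.55, 10.64, 10.97 and 10.41 in Control replicates. The groups did not overlap, but Sca1-HGAL replicate 4 and Control replicate 4 lay next to each other. The log2 fold was -0.40 (SE 0.11, 95% interval -0.65 to -0.15), with a limma adjusted p = 0.295. Leaving out single arrays gave log2 folds from -0.48 to -0.29, and leaving out both Control arrays with high Xist gave -0.52. Over all alternatives its adjusted p lay between 0.221 and 0.556.

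Cd24a did not share this pattern. CD24, the heat-stable antigen, is abundant on immature and transitional B cells and persists at a lower level on mature ones. It is also carried by red cell precursors and neutrophils. Its log2 intensity was 12.82, 12.25, 12.48 and 12.42 in Sca1-HGAL replicates, against 12.69, 12.44, 12.56 and 12.61 in Control replicates. The Sca1-HGAL arrays held both the highest and the lowest value, so the Control range lay inside theirs. The log2 fold was -0.08 with a 95% interval of -0.33 to 0.17 (limma adjusted p = 0.864). For the Cd24a intensity of the whole sample, this excludes a change of the size estimated for Cd93. Because mature B cells also carry CD24, the interval does not bound a change in transitional cells alone. Markers of the other cells that carry CD24 were measured beside Cd24a. The summed intensity of the 5 measured erythroid genes of 9 was 3453 to 4775 in Sca1-HGAL arrays and 1941 to 6613 in Control arrays. Of these, Tfrc, the transferrin receptor gene, had -0.34 (SE 0.10), Alas2, of heme synthesis, 0.88 (SE 0.43) and Klf1, an erythroid factor, -0.06. Neutrophil genes were higher on average across the Sca1-HGAL group. All 9 had positive log2 folds, with a median of 0.40 and 5 at an unadjusted limma p under 0.05. Their Control means were low, from 5.66 for S100a8 to 6.97 for Lcn2. Near log2 6, small differences say little of the transcripts. The protease genes Elane, at 0.40 (SE 0.12), and Mmp9, at 0.34 (SE 0.10), had groups that did not overlap, and Mpo, which encodes myeloperoxidase, had 0.36 (SE 0.15). The summed intensity of the 9 genes was 842 to 2706 in Sca1-HGAL arrays and 733 to 1336 in Control arrays. It was highest in Sca1-HGAL replicate 1, which also had the highest Cd24a. Sca1-HGAL replicate 2 had the next highest sum, 1684, but the lowest Cd24a, 12.25. Without Sca1-HGAL replicate 1 the Cd24a log2 fold was -0.19, and without Sca1-HGAL replicate 2 it was -0.00098. The part of these cells in the Cd24a values was not tested.

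**Figure D2:**
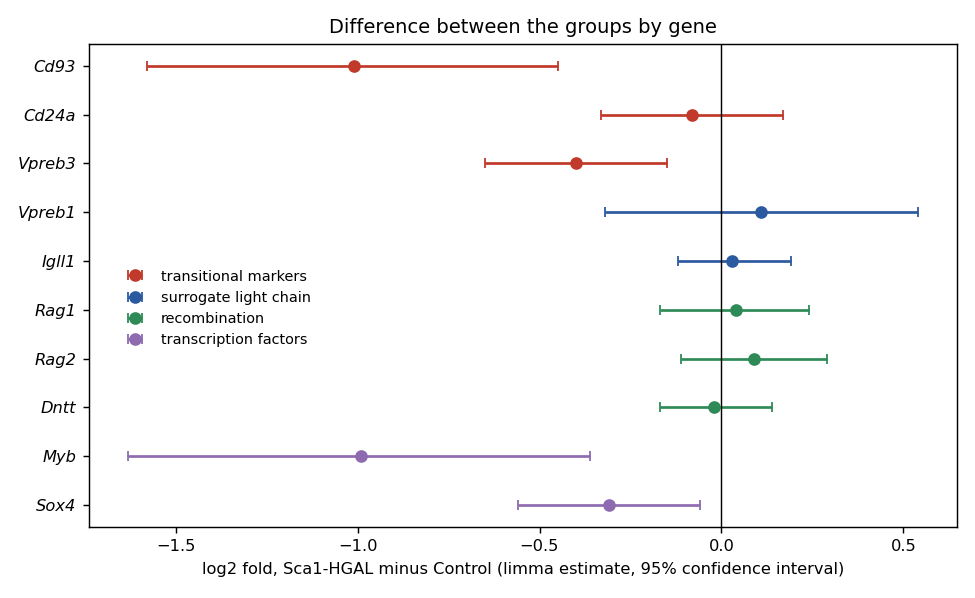
Log2 fold of each gene (x axis, Sca1-HGAL minus Control) with its 95% confidence interval from limma, coloured by role. Intervals for Cd93, Vpreb3, Myb and Sox4 lie below 0 before any adjustment. Those of the transitional marker Cd24a and of the surrogate light chain and recombination genes span 0.

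The surrogate light chain genes Vpreb1 and Igll1 had close group means. Vpreb1, whose product pairs with lambda 5 in the pre-B-cell receptor, was at 6.01, 6.92, 6.84 and 6.17 in Sca1-HGAL replicates, against 6.25, 6.57, 6.33 and 6.33 in Control replicates. Sca1-HGAL replicates 2 and 3 were above, and replicates 1 and 4 below, all 4 Control arrays. The SD was 0.46 in Sca1-HGAL arrays and 0.14 in Control arrays. The log2 fold of 0.11 had a 95% interval of -0.32 to 0.54 (limma adjusted p = 0.901). Igll1, which encodes lambda 5, ranged from 6.92 to 7.16 in Sca1-HGAL arrays and from 6.99 to 7.12 in Control arrays. Its log2 fold was 0.03 (95% interval -0.12 to 0.19, adjusted p = 0.923). Vpreb2, a near copy of Vpreb1, differed by 0.05 on the log2 scale (SE 0.08), and probes of such close relatives may share transcripts.

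Recombination genes were dim in both groups. Their Control means were under log2 6 for all 3, Rag1 by a narrow margin, a level below which 21.5% of tested probe sets lay on average, and the deposited values carry no detection calls. Rag1, a catalytic subunit of the V(D)J recombinase, ranged from 5.88 to 6.20 in Sca1-HGAL arrays and from 5.83 to 6.17 in Control arrays. Rag2, its cofactor, ranged from 4.43 to 4.73 in Sca1-HGAL arrays and from 4.38 to 4.70 in Control arrays. Dntt, which encodes TdT, ranged from 5.07 to 5.34 in Sca1-HGAL arrays and from 5.16 to 5.28 in Control arrays. The ranges of the groups overlapped for each. Their 95% intervals were -0.17 to 0.24 for Rag1, -0.11 to 0.29 for Rag2 and -0.17 to 0.14 for Dntt, with limma adjusted p of 0.938, 0.799 and 0.965. At such levels an array shrinks differences, so these intervals bound the measured intensities and not the transcripts.

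Both transcription factors had lower means in Sca1-HGAL arrays. Myb, which sustains blood progenitors and early B-cell stages and is lowered as B cells mature, had a log2 fold close to that of Cd93. Its log2 intensity was 7.79, 6.89, 7.39 and 7.08 in Sca1-HGAL replicates, against 7.72, 8.37, 9.10 and 7.94 in Control replicates. The groups overlapped through 1 pair, with Sca1-HGAL replicate 1 above Control replicate 1. The log2 fold was -0.99 (SE 0.29, 95% interval -1.63 to -0.36), with a limma adjusted p = 0.305. This was the 17th lowest log2 fold of all genes, next to that of Cd93. Without Control replicate 3 it was -0.72, and without the Control arrays with high Xist -1.12, with adjusted p from 0.162 to 0.618 over 17 alternatives.

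Sox4, a factor needed for early B-cell progenitors, was at 6.94, 7.00, 7.19 and 7.19 in Sca1-HGAL replicates, against 7.09, 7.61, 7.46 and 7.39 in Control replicates. Only Control replicate 1 lay within the Sca1-HGAL range. The log2 fold was -0.31 (SE 0.11, 95% interval -0.56 to -0.06), with a limma adjusted p = 0.416. Without the Control arrays with high Xist the log2 fold was -0.19 and the adjusted p = 0.731. Its unadjusted p then no longer lay under 0.05, as it still did for Cd93, Vpreb3 and Myb. Leaving out Control replicate 2, Sca1-HGAL replicate 1 or Sca1-HGAL replicate 2 alone also took it above 0.05. It was under 0.05 in 13 of 17 alternatives for Sox4, and in all 17 for Cd93, Vpreb3 and Myb.

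**Figure D3:**
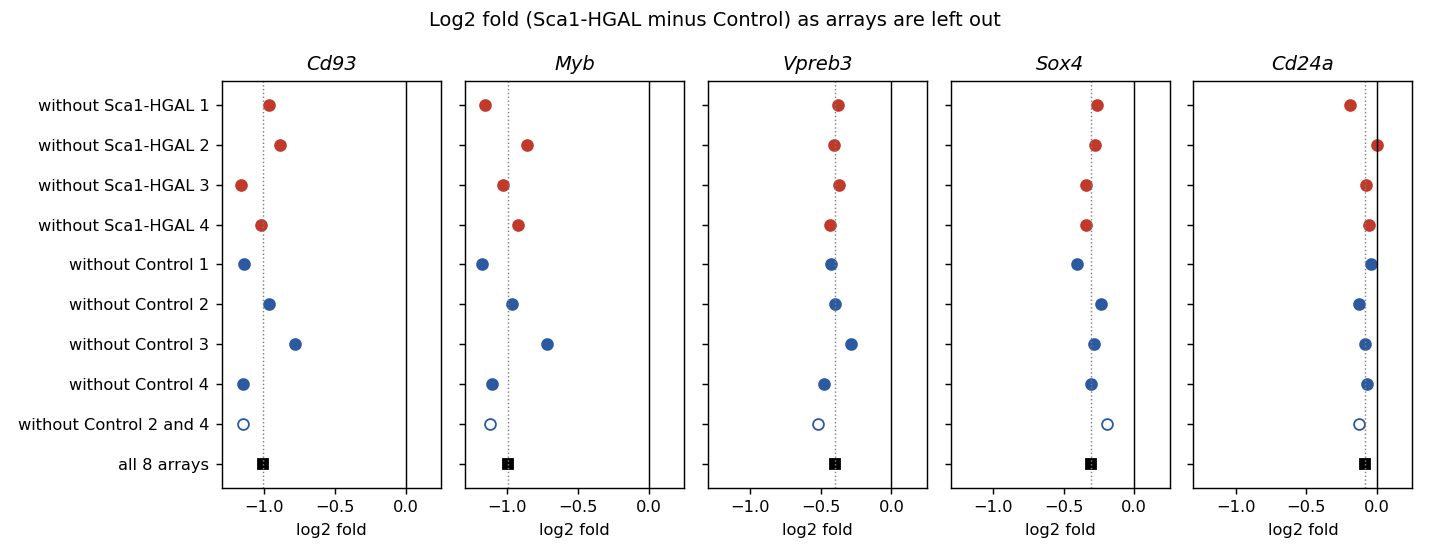
Log2 fold of the transitional markers and the transcription factors (x axis) when single arrays, or Control replicates 2 and 4 with high Xist, are left out; squares and dotted lines give all 8 arrays. Cd93 and Myb come nearest to 0 without Control replicate 3, at -0.78 and -0.72, and Cd24a reaches 0 without Sca1-HGAL replicate 2.

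Cd93 and Myb shared part of their pattern across arrays. Both were highest in Control replicate 3, next highest in Control replicate 2 and lowest in Sca1-HGAL replicate 2. Within the Sca1-HGAL group Myb was highest in replicate 1, at 7.79, where Cd93 was 6.94. Cd93 was highest there in replicate 3, at 7.54, where Myb was 7.39. After each gene was centred on its own mean, the root mean square distance between them over 8 arrays was 0.284 log2 units, against a median of 0.652 between Cd93 and all other genes. The genes nearest to Cd93 were Lifr, a cytokine receptor gene, at 0.247, Bmf, which encodes a death-promoting BCL2 family protein, at 0.267, and Eps8, an actin regulator, at 0.272. Those nearest to Myb were Cecr2, a chromatin remodelling factor gene, at 0.294, Tmem26, a membrane protein gene, at 0.328, and Gzma, at 0.329. Gzma encodes granzyme A, a protease of NK and T cells. All 6 had lower means in Sca1-HGAL arrays, with log2 folds from -1.34 for Cecr2 to -0.58 for Eps8, and none passed limma after adjustment. Such likeness includes the difference between the groups, which any gene with a similar difference shares.

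Other cells and states that carry these genes were measured through their own markers. Cell cycle genes, which move with Myb in dividing cells, had a median log2 fold of -0.32 over 9 measured of 10, with 8 negative and 0 at an unadjusted limma p under 0.05. Bub1, a mitotic checkpoint kinase, had -0.60 (SE 0.29), Aurkb, a mitotic kinase, -0.42 (SE 0.21), and Rrm2, of nucleotide synthesis, -0.33 (SE 0.27). The summed intensity of the list was 1143 to 2463 in Sca1-HGAL arrays and 1157 to 2154 in Control arrays. It was highest in Sca1-HGAL replicate 1, the array with the highest Myb of its group, though its Myb of 7.79 was below that of Control replicates 2, 3 and 4. In Control arrays the sum was lowest in replicate 1 and highest in replicate 3, as Myb was. Sca1-HGAL replicate 2 had the next highest sum of its group, 1297, but the lowest Myb, 6.89. The part of dividing cells in the Myb values was not tested.

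Markers of plasmacytoid dendritic cells, which carry B220 and share several early lymphoid genes, were lower on average too. Of 7 measured genes of 8, 6 had negative log2 folds, with a median of -0.18. Siglech, a surface lectin of these cells, had -0.68 (SE 0.21), and Ccr9, a chemokine receptor, -0.83 (SE 0.23), both with groups that did not overlap and neither past the adjusted threshold. Pacsin1 had -0.18 (SE 0.08). Siglech and Ccr9 were highest in Control replicate 3, at 8.61 and 7.67, the array that was also highest for Cd93, Myb and Vpreb3. Pacsin1 was highest in Control replicate 4. The summed intensity of the list was 3671 to 6762 in Sca1-HGAL arrays and 3794 to 7108 in Control arrays. It was highest in Control replicate 4 and next highest in Sca1-HGAL replicate 1, where Cd93 was 6.94. The sum mostly reflects the brightest genes of the list, Tcf4 and Ly6d, with Control means of 10.95 and 10.68. In Control replicate 3 the sum was 6188. Plasma cell markers, relevant to Cd93, had a median log2 fold of -0.07 over 6 genes. Of these, 4 had negative and 2 positive log2 folds, between -0.64 and 0.47. At an unadjusted limma p under 0.05, 2 were lower and 0 higher, and 0 passed after adjustment. Slamf7, a surface receptor, had -0.64 (SE 0.14), with groups that did not overlap. Sdc1, which encodes CD138, had -0.43 (SE 0.10), while Xbp1 had -0.09. The summed intensity of the 6 genes was 2587 to 4250 in Sca1-HGAL arrays and 3165 to 3960 in Control arrays. The median for NK cell genes was -0.35, all 6 being negative, with sums of 305 to 455 in Sca1-HGAL arrays and 380 to 666 in Control arrays. Besides Gzma, at -0.77, Ncr1, an activating receptor gene, had -0.46 and Klrd1 -0.60. The part of these cells in the differences of Cd93 and Myb was not tested.

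**Figure D4:**
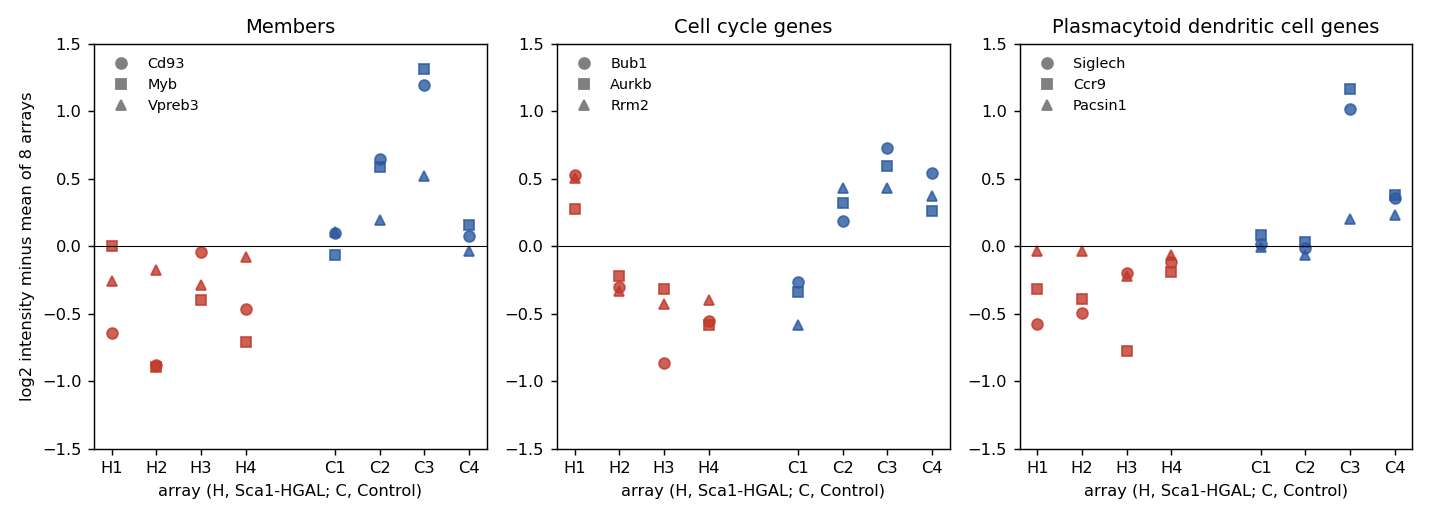
Log2 intensity minus the gene's mean over 8 arrays (y axis) for Cd93, Myb and Vpreb3, for 3 cell cycle genes and for 3 plasmacytoid dendritic cell genes, with Sca1-HGAL arrays left of Control arrays. Control replicate 3 is the highest array for Cd93, Myb and Vpreb3 and also for Siglech and Ccr9, while Pacsin1 is highest in Control replicate 4.

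Haematopoietic progenitor genes did not follow Myb and Cd93. Of 7 measured genes of 8, 5 had positive log2 folds, with a median of 0.12 and 3 at an unadjusted limma p under 0.05, all higher. Flt3, a growth factor receptor of lymphoid progenitors, had 0.41 (SE 0.15), Meis1, a stem cell homeobox factor, 0.33 (SE 0.14), and Cd34 0.15 (SE 0.07). Kit, the stem cell factor receptor, had -0.04. Control means were low, at 6.14 for Cd34, 6.36 for Meis1, 6.42 for Kit and 6.99 for Flt3. At levels near log2 6 small differences say little of the transcripts. The summed intensity of the progenitor list was 687 to 783 in Sca1-HGAL arrays and 629 to 659 in Control arrays. The part of progenitors in the Cd93 and Myb values was not tested. Endothelial genes, some of whose cells carry CD93, had log2 folds between 0.01 and 0.09 over 5 genes, with Emcn at 0.09, Kdr at 0.05 and Pecam1 at 0.03. Among macrophage and monocyte genes, Adgre1, an adhesion receptor gene of macrophages, had a log2 fold of 1.01 (SE 0.19), about as large as that of Cd93 and of opposite sign. It was at 8.55 to 9.36 in Sca1-HGAL arrays and 7.54 to 8.14 in Control arrays, with no overlap, and did not pass after adjustment. Mertk, a receptor for dying cells, had -0.23 (SE 0.11) and Csf1r, a growth factor receptor, -0.18 (SE 0.16). The list had a median of -0.11 over 7 genes, with 1 at an unadjusted p under 0.05, and sums of 1763 to 2701 in Sca1-HGAL arrays and 1786 to 2531 in Control arrays. T cell genes had a median of 0.14 over 6 measured of 7, with Cd4 at -0.26, Cd3d at 0.14 and Cd8a at 0.16.

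The wider early B-cell programme had no common direction. Of 10 further genes of early stages, 4 had negative and 6 positive log2 folds, with a median of 0.04, and 0 passed limma after adjustment. At an unadjusted p under 0.05, 3 were lower and 1 higher. Akap12, a kinase scaffold, had -0.55 (SE 0.13), at 7.01 to 7.19 in Sca1-HGAL arrays and 7.29 to 7.88 in Control arrays. Lef1, a Wnt pathway factor of pro-B cells, had -0.56 (SE 0.17), and Spn, which encodes CD43, a marker of pro-B and B-1 cells, 0.54 (SE 0.16). Il7r, the receptor chain for the growth factor of bone marrow B-cell precursors, had 0.04 (SE 0.45), with an SD of 1.09 in Sca1-HGAL arrays and 0.37 in Control arrays. End joining genes, which repair the breaks made by the recombinase, had log2 folds between -0.12 and 0.18 over 12 measured of 13, with 0 at an unadjusted p under 0.05 in either direction. Xrcc4, a ligase partner, had 0.18 (SE 0.09), Polm, a polymerase of the joints, -0.12, and Xrcc6, the KU70 subunit, 0.15.

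Early B-lineage transcription factors leaned lower by small amounts. Of 16, 15 had negative log2 folds, with a median of -0.09 and a lowest value of -0.21, and 2 had an unadjusted limma p under 0.05, both lower. Spi1, which encodes PU.1, had -0.20 (SE 0.07), Tcf12, an E-protein, -0.18 (SE 0.07) and Ikzf1, which encodes IKAROS, -0.10 (SE 0.05). Ebf1 had -0.12. Genes of mature B cells were also lower on average. Of 8 measured of 11, 7 had negative log2 folds, with a median of -0.20 and 4 lower at an unadjusted p under 0.05. Fcer2a, the CD23 gained by follicular cells, had -0.42 (SE 0.10), Ccr7, a homing receptor, -0.41 (SE 0.13) and Cr2, complement receptor CD21, -0.28 (SE 0.12). The summed intensity of these mature genes was 31222 to 36755 in Sca1-HGAL arrays and 37499 to 40822 in Control arrays. B-cell identity genes summed to 51451 to 52454 in Sca1-HGAL arrays and 53622 to 54562 in Control arrays, with log2 folds of -0.11 for Cd79a, -0.11 for Ms4a1 and -0.06 for Pax5. None of these lists had a gene past the adjusted threshold.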

How the data were processed

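Total RNA of 4 Sca1-HGAL and 4 Control samples was measured on 1 array each, and groups and replicate numbers come from the sample titles. Intensities were deposited on a linear scale after RMA, according to the processing notes of the submitters, and its quantile normalisation removes changes shared by most genes. Its version and the genome build were not given in the sources used here. Values lay between 4.94 and 24302, and log2 was taken with no pseudocount. Any 2 columns had at most 0.0604% identical values.

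Of 34760 probe sets, 21640 with 1 gene symbol were tested in limma 3.58.1 (R 4.3.3, lmFit and eBayes, two-sided, without covariates, Benjamini-Hochberg threshold 0.05). The platform table gave several symbols for 1321 and did not list 11799. The probe set with the highest mean stood for a gene, and 21553 probe sets matched a reference gene identifier. The test was tried on simulated data. The genes, lists and alternatives were chosen with earlier results of these data known. All 10 genes, up to 3 per list by smallest p, and the 3 nearest genes to Cd93 and to Myb were to be named, along with the sort and sex-linked genes. Further list genes (Kit, Il7r, Vpreb2, Ebf1) were named after their values were seen. List genes with no probe set of their own were not analysed here.

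Same-numbered samples did not deviate together (correlations of -0.16, 0.053, -0.134 and -0.01), so the numbers were not taken as pairs. Array number limits the precision, and no batch is given.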

Additional observations from a re-analysis of the deposited data

How the results depend on the processing

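No gene of the set was called in any of the 16 alternatives fitted over the whole table, and Cd93, Vpreb3, Myb, Sox4, Cd24a and Rag2 kept their direction in each. The log2 fold changed sign for Igll1 with a second quantile normalisation (-0.0013) and median centring (-0.0051). For Rag1 it did so with median centring (-0.00055) and array weights (-0.0019), and leaving out single arrays gave -0.018 to 0.095. Leaving out single arrays gave -0.033 to 0.27 for Vpreb1 and -0.060 to 0.032 for Dntt. Each of these shifts is within the SE, and the cause was not tested. The probe sets called, 1 with all arrays, were 3 with median centring, 12 with array weights, 6 with the replicate block and 2 without the Control arrays with high Xist. Leaving out single arrays gave 1 to 40, with 40 without Sca1-HGAL replicate 3 and 2 without Sca1-HGAL or Control replicate 1; the cause was not tested. With the replicate block Cd93 had an adjusted p = 0.197, and over all its alternatives 0.112 to 0.545. The median of the transitional markers stayed between -0.52 and -0.29. It is the middle of 3 values and was that of Vpreb3 in every alternative, so it describes Vpreb3 alone. Cd24a came to -0.00098 without Sca1-HGAL replicate 2. The median of the pre-B and recombination genes stayed between -0.0049 and 0.089. A mean log2 of at least 6 left out Rag2 and Dntt. Dim probe sets limit what can be said of the recombination genes.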
